A study of Mus musculus with 2 samples.

Results

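The 9 genes described here are the lysosomal proteases Ctss, Ctsl, Ctsb, Ctsd, Ctsz, Ctsh and Lgmn, the thiol reductase Ifi30 and the protease inhibitor Cst3, out of 20451 genes in the count tables. They were chosen by name, as rows of both gene expression tables, and all 9 were found and measured in every antigen-presenting cell type. The question was which protease held the largest share of the transcripts in each type, and how the 9 genes compared between Mgl2DTR_eGFP mice and B6 wild-type mice (B6WT in the tables, WT below).

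The data are single-cell RNA-seq counts from the thymus of mice 7 weeks old. The Mgl2DTR mice received 500 ng of diphtheria toxin and were taken at 48 h. As their name gives it, they carry a diphtheria toxin receptor and eGFP tied to Mgl2, a lectin gene of type 2 conventional dendritic cells and some macrophages, so the toxin can remove cells that express it. The labels do not make clear whether the WT mice received toxin, and they give no number of animals. Thymus tissue was digested with collagenase D, cells bearing CD90.2 were depleted magnetically, and the live fraction was sorted on CD11c and CD11b. Both genotypes were marked with hashtag antibodies and run together, and the deposited hashtag calls give 7433 Mgl2DTR cells and 11586 WT cells. Each genotype is thus 1 sample: no difference between them has a replicate check, no p-value is given, and every interval below covers counting error only. In the cells that remain after toxin, loss of some cells and a changed level within cells cannot be told apart.

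In the class II pathway, endosomal proteases cut the invariant chain from class II molecules and cut antigens into peptides, and the set of proteases in a cell shapes the peptides it shows. In the thymus the same pathway supplies the self peptides that developing T cells are tested on. Cathepsin S, from Ctss, makes the last cuts of the invariant chain in dendritic cells and B cells, while cathepsin L, from Ctsl, takes that step in cortical thymic epithelium. Cystatin C, from Cst3, is a secreted inhibitor of cathepsins and an abundant product of type 1 conventional dendritic cells (cDC1).

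The stretch around the transcription start is printed for the 3 proteases that lead in different cell types (Ctss, Ctsl and Ctsz) and for Ctsd, which differs most between types among the proteases with a listed promoter other than Ctsl. Each runs from 250 bases before the start to 50 bases from it on, from RefSeq on GRCm38.p6, and is written 5′ to 3′ on the gene's strand. Ctss is at chr3:95526536-95526835 on the plus strand, Ctsl at chr13:64370471-64370770 on the minus strand, Ctsz at chr2:174438990-174439289 on the minus strand, and Ctsd at chr7:142387778-142388077 on the minus strand. Capitals mark matches, on either strand, to TCACGTGA (the CLEAR element, an E-box that the transcription factor TFEB reads in lysosomal genes), CACGTG (the plain E-box, which TCACGTGA contains), GAGGAAG (a core that PU.1 reads), an interferon-stimulated core (GAAA, any 2 bases, GAAA) and CCAAT.
Ctss: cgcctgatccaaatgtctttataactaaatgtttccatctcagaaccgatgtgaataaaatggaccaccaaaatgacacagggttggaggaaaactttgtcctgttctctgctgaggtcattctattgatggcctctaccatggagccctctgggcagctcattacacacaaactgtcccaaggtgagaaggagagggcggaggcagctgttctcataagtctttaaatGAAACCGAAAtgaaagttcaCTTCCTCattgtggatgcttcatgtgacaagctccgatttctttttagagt
Ctsl: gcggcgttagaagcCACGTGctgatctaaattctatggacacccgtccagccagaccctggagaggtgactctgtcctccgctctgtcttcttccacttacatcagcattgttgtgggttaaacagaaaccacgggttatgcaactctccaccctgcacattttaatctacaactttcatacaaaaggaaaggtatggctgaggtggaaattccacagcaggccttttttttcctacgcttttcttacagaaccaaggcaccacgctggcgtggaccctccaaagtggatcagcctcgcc
Ctsz: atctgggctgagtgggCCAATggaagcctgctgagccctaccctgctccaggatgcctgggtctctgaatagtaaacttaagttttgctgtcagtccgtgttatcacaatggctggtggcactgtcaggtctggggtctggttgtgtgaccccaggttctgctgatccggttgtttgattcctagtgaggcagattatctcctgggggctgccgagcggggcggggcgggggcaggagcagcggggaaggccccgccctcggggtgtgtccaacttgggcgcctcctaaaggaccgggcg
Ctsd: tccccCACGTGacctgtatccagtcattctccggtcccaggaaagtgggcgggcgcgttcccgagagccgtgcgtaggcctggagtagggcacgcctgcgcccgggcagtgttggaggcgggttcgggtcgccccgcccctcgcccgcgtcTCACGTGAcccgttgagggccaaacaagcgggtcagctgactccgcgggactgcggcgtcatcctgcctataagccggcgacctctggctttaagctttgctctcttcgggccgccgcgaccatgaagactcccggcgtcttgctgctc
Promoters were listed for 7 of the 9 genes, and Ctsb and Ctsh are named only. Position -1 is the last base before the start. The Ctss stretch held the interferon-stimulated core from position -21 and, on the opposite strand, GAGGAAG from position -1, and its GC content was 44%, against a median of 52.7% over all 27025 listed promoters. That core occurred in 3.49% of those promoters and GAGGAAG in 13.5%. TCACGTGA occurred in 1.01% of the promoters, and among the 7 genes it was found in Ctsd, from position -99, and in Ifi30, from position -197. The Ctsl stretch held CACGTG from position -236, a motif of 7.24% of the promoters, and the Ctsz stretch held CCAAT from position -234, a motif of 37.9%. TTCNNNGAA, a site for STAT factors that was searched as well, occurred in 8.47% of the promoters and in none of the 7 genes. These are matches of letters only. On GRCm38 (mm10), the GENCODE M21 annotation places Ctss at chr3:95526786-95556403, Ctsl at chr13:64359337-64370890, Ctsb at chr14:63122462-63145923, Ctsd at chr7:142375911-142388038 and Ctsz at chr2:174427493-174439039. It places Ctsh at chr9:90054152-90076089, Lgmn at chr12:102394084-102439813, Ifi30 at chr8:70762774-70766663 and Cst3 at chr2:148871722-148875692.

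The whole series holds 28926 droplets, of which 9829 were called Doublet and 78 Negative in the authors' hashtag call, and those were left out of all values. The hashtag list also holds an uncategorized tag, so which tags a droplet called Doublet carries was not checked. The median total was 6930 UMIs per Mgl2DTR cell and 7820 UMIs per WT cell. No cell barcode was shared between the tables. Mgl2 itself, the gene the depletion was built on, stood at 17.9 UMIs per 1000000 UMIs (CPM) in Mgl2DTR cells and 109.2 CPM in WT cells. Cells were clustered without the 9 genes and without Mgl2, and the 36 clusters were named from marker genes, giving 8 antigen-presenting types of 232 to 999 Mgl2DTR cells and 222 to 1517 WT cells. The types are cDC1-like, cycling cDC1-like, cDC2-like, activated DC-like (Ccr7 and Fscn1), plasmacytoid (pDC-like), macrophage-like, monocyte-like and B-like. The cDC2-like type held 232 Mgl2DTR and 941 WT cells. A further 12 clusters without a safe name stay out of these types. Levels are given as CPM within the type, and orders between types are among these 8. Each UMI is a tag at the 3′ end of 1 molecule and does not grow with transcript length, so levels of different genes are set side by side. Differences between genes in capture and in the assignment of reads were not measured. The intervals do not cover them, so a small lead of 1 gene over another is not secure. T cell-like cluster 2, whose cells lack the class II pathway, serves as a reference level that free RNA and T cells together give. It is no lower limit, as some of the 9 genes lay lower in other types. Its median total was 3067.5 UMIs, against 14227 in Mgl2DTR and 14154 in WT cDC1-like cells. A level at or under it does not show that a type lacks the gene.

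**Figure D1:**
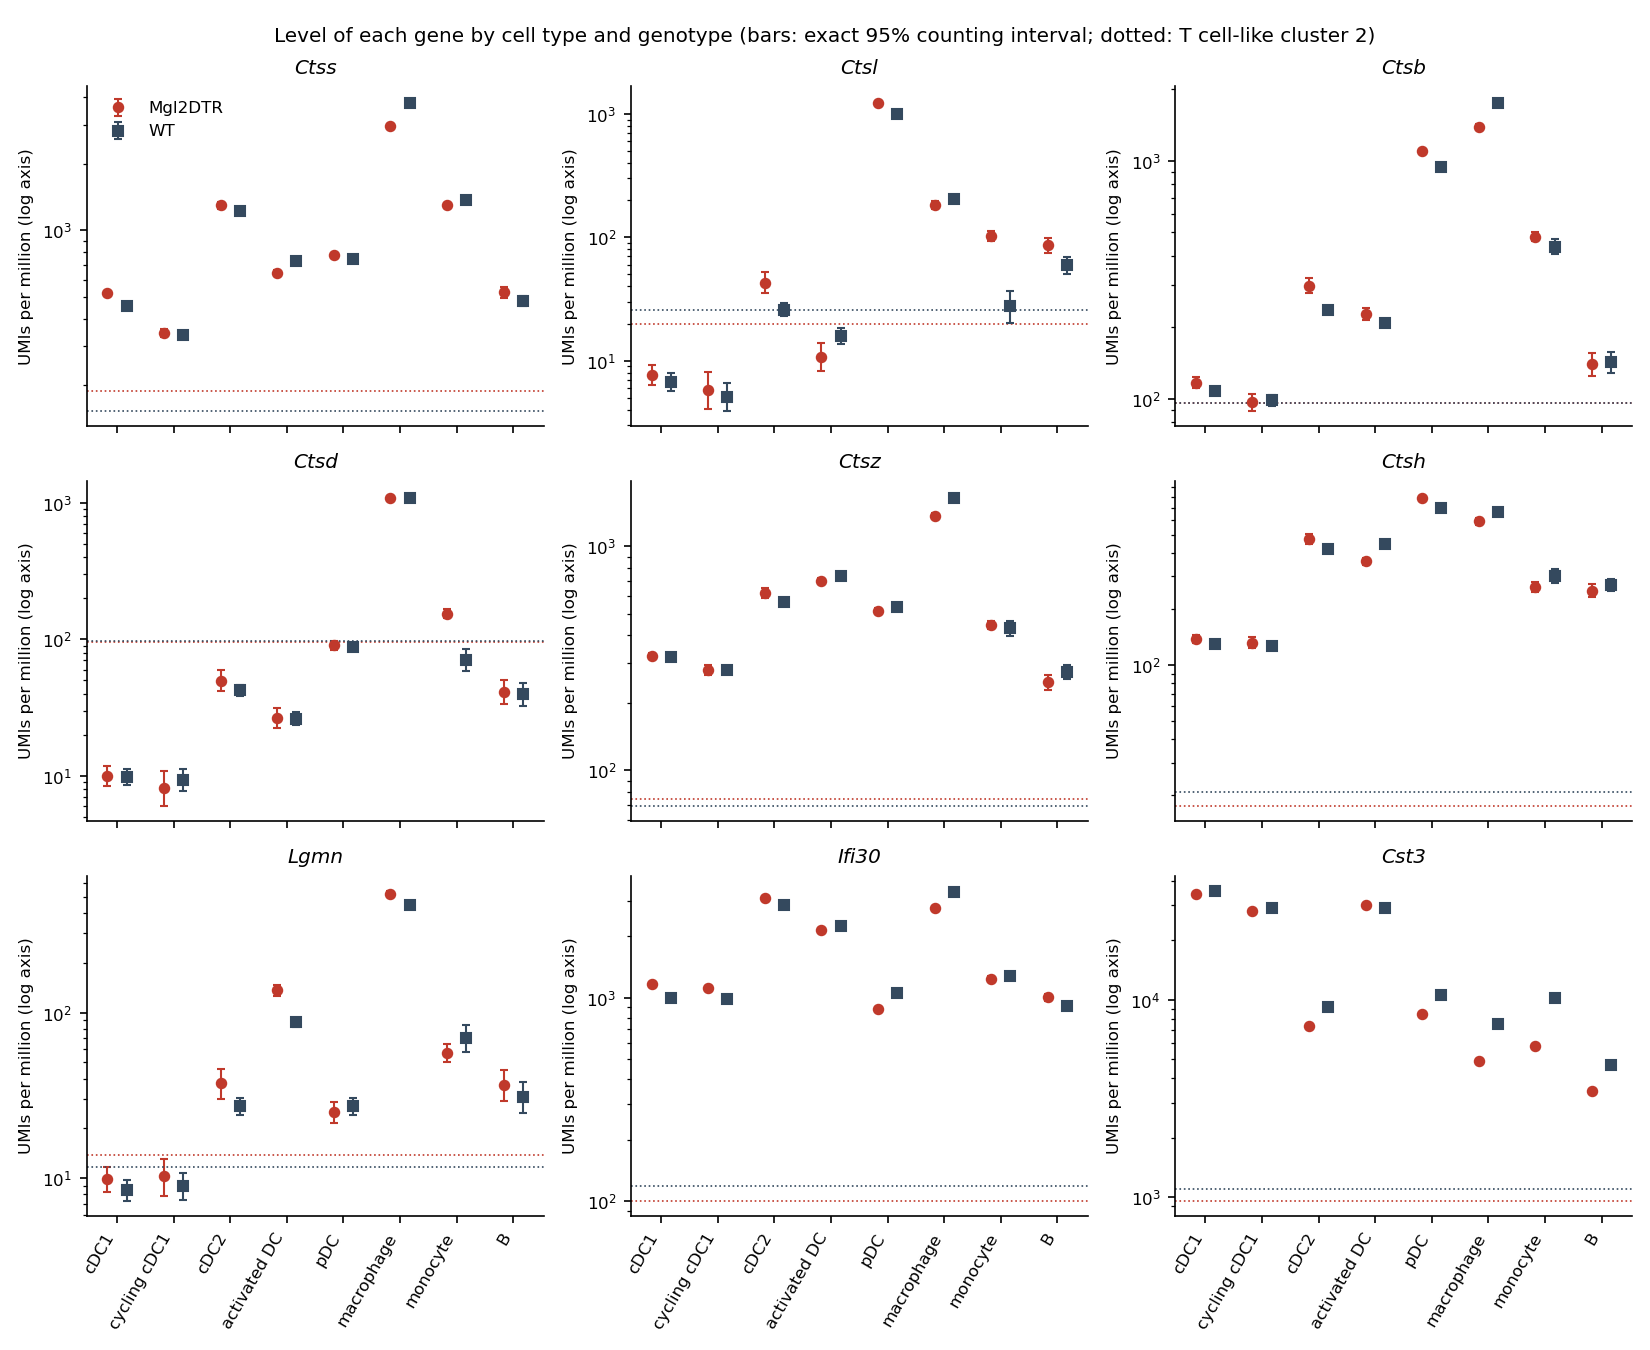
Level of each of the 9 genes in UMIs per 1000000, or CPM (log axis) in 8 antigen-presenting types, with Mgl2DTR as red circles left of WT as dark squares, bars for exact 95% Poisson intervals and dotted lines for the level in T cell-like cluster 2. Ctsl stands at 1238 in Mgl2DTR and 991 in WT pDC-like cells and at or under 206 in the other types shown, whereas Ifi30 spans only 3.5 fold in Mgl2DTR cells.

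Ctss was highest in macrophage-like cells. It stood there at 2973 CPM (95% Poisson interval 2919 to 3027) in Mgl2DTR cells and 3775 (3734 to 3817) in WT cells. Monocyte-like cells followed with 1301 in Mgl2DTR and 1371 in WT cells, and cDC2-like cells with 1299 (1255 to 1345) in Mgl2DTR and 1224 (1203 to 1246) in WT cells. In Mgl2DTR the intervals of these 2 types overlapped, so their order was not resolved there. The cDC1-like cells had less, 521 in Mgl2DTR and 456 in WT, and their cycling counterparts the least, 345 in Mgl2DTR and 339 in WT. The highest type exceeded the lowest 8.61 fold in Mgl2DTR and 11.1 fold in WT. Every type lay above T cell-like cluster 2, which had 188 in Mgl2DTR and 153 in WT. After each cell was thinned to 2000 UMIs, Ctss was found in 97.0% of Mgl2DTR and 97.5% of WT macrophage-like cells, in 85.7% of Mgl2DTR and 88.2% of WT cDC2-like cells, and in 62.9% of Mgl2DTR and 58.6% of WT cDC1-like cells. The share in T cell-like cluster 2 was 32.2% in Mgl2DTR and 25.9% in WT, below all these shares. Without thinning, at median totals of 14227 UMIs in Mgl2DTR and 14154 UMIs in WT, Ctss was found in 98.8% of cDC1-like cells of either genotype, against 42.5% of Mgl2DTR and 38.6% of WT cells of T cell-like cluster 2 at median totals of 3062 UMIs in Mgl2DTR and 3068 UMIs in WT.

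Ctsl, the other protease known for the late steps of invariant chain removal, differed most between types of the 9 genes. Its level was 1238 (1213 to 1263) in Mgl2DTR and 991 (972 to 1011) in WT pDC-like cells. Macrophage-like cells came next with 183 in Mgl2DTR and 206 in WT. In cDC1-like cells it was 7.69 in Mgl2DTR and 6.76 in WT, and in activated DC-like cells 10.7 in Mgl2DTR and 15.8 in WT. All of these lie under the 19.9 in Mgl2DTR and 25.6 in WT of T cell-like cluster 2. How much of them free RNA gives was not tested. The cDC2-like cells had 43.0 in Mgl2DTR, above cluster 2, and 25.9 in WT, near it. The pDC-like type exceeded the lowest type 213 fold in Mgl2DTR and 194 fold in WT. After thinning, 87.6% of Mgl2DTR and 84.9% of WT pDC-like cells held a Ctsl UMI, against 29.2% of Mgl2DTR and 25.2% of WT macrophage-like cells, and against 2.93% of Mgl2DTR and 5.40% of WT cells of T cell-like cluster 2. Unthinned, the share was 95.5% in Mgl2DTR and 95.3% in WT pDC-like cells, and 6.27% in Mgl2DTR and 7.92% in WT cells of T cell-like cluster 2, at median totals of 5949 UMIs in Mgl2DTR and 6205 UMIs in WT pDC-like cells.

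The exopeptidases Ctsb, Ctsz and Ctsh, which trim peptides from their ends, differed less between types than Ctsl did. Ctsb was highest in macrophage-like cells, at 1382 in Mgl2DTR and 1741 in WT, then in pDC-like cells, at 1097 in Mgl2DTR and 937 in WT. In cDC1-like cells it was 117 in Mgl2DTR and 108 in WT, and in cycling cDC1-like cells 96.9 in Mgl2DTR and 98.8 in WT. These values lie at or near those of T cell-like cluster 2, which had 96.4 in Mgl2DTR and 96.7 in WT. Ctsz was again highest in macrophage-like cells, at 1373 in Mgl2DTR and 1647 in WT. Its next type was activated DC-like, at 702 (679.7 to 724) in Mgl2DTR and 738 (723 to 754) in WT, above cDC2-like cells at 622 in Mgl2DTR and 563 in WT. Ctsh, an aminopeptidase, was the only other protease besides Ctsl with its peak in pDC-like cells, at 784 (764 to 804) in Mgl2DTR and 698 (682 to 715) in WT, against 590.3 in Mgl2DTR and 663 in WT macrophage-like cells. Ctsh spanned 5.94 fold across types in Mgl2DTR and 5.49 fold in WT, far less than Ctsl.

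Ctsd, the aspartic protease of the set, and Lgmn, the asparagine-specific endopeptidase legumain, which can start the cutting of antigens and activates other cathepsins, were highest in macrophage-like cells among the 8 types. Ctsd shares exons with the overlapping gene Gm49369 on the same strand in GENCODE M21, so how its reads were assigned is uncertain and its level against other proteases may be too low, in every type and genotype alike. It stood at 1088 in Mgl2DTR and 1087 in WT macrophage-like cells, nearly the same. The next of the 8 types had at most 155 CPM (monocyte-like Mgl2DTR cells), and cDC1-like cells had 9.92 in Mgl2DTR and 9.73 in WT. T cell-like cluster 2 had 94.9 in Mgl2DTR and 97.7 in WT, so of the 8 types only macrophage-like cells and, in Mgl2DTR, monocyte-like cells stood above that level. Outside the 8 types Ctsd was also above it, at 223 in Mgl2DTR and 163 in WT neutrophil-like cells and at 233 in Mgl2DTR and 228 in WT NK/ILC-like cells, and it was 662 in Mgl2DTR and 769 in WT cells of neutrophil-like cluster 10. Lgmn stood at 517 in Mgl2DTR and 444 in WT macrophage-like cells. Activated DC-like cells were second of the 8, with 136 in Mgl2DTR and 87.1 in WT, whereas cDC1-like cells had 9.85 in Mgl2DTR and 8.52 in WT, no higher than T cell-like cluster 2 with 13.8 in Mgl2DTR and 11.7 in WT.

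Ifi30, which encodes the reductase GILT that opens disulfide bonds of antigens in lysosomes, was the most even gene of the set. It was 3076 (3008 to 3146) in Mgl2DTR and 2870.2 (2838 to 2903) in WT cDC2-like cells, and 2774 (2723 to 2827) in Mgl2DTR and 3303 (3265 to 3342) in WT macrophage-like cells. The leading type was therefore cDC2-like in Mgl2DTR and macrophage-like in WT. The lowest values were 879.9 in pDC-like cells of Mgl2DTR and 911 in B-like cells of WT, and T cell-like cluster 2 had 101 in Mgl2DTR and 119 in WT.

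The make-up of the 7 proteases answers which one dominates. Their summed level was highest in macrophage-like cells, at 8106 CPM in Mgl2DTR and 9564 in WT, and lowest in cycling cDC1-like cells, at 878 in Mgl2DTR and 870.2 in WT. Ctss held the largest share in 12 of the 16 combinations of type and genotype. It made up 46.2% (exact binomial 95% interval 45.4 to 47.0) of protease UMIs in Mgl2DTR and 43.8% (43.2 to 44.4) in WT cDC1-like cells. In cDC2-like cells Ctss made up 46.0% in Mgl2DTR and 48.2% in WT, in monocyte-like cells 46.4% in Mgl2DTR and 50.6% in WT, in B-like cells 39.7% in Mgl2DTR and 37.1% in WT, and in macrophage-like cells 36.7% in Mgl2DTR and 39.5% in WT. Ctsz was second in cDC1-like cells, with 28.7% in Mgl2DTR and 30.9% in WT. Among the 7 proteases, Ctss, Ctsz, Ctsh and Ctsb thus held most of the UMIs in cDC1-like and cDC2-like cells, while Ctsl, Ctsd and Lgmn each held under 2%. Cathepsins outside the 7 are not part of these shares. A list of 8 others summed to 381 CPM in Mgl2DTR and 305 in WT cDC2-like cells, and to 108 in Mgl2DTR and 98.4 in WT cDC1-like cells.

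**Figure D2:**
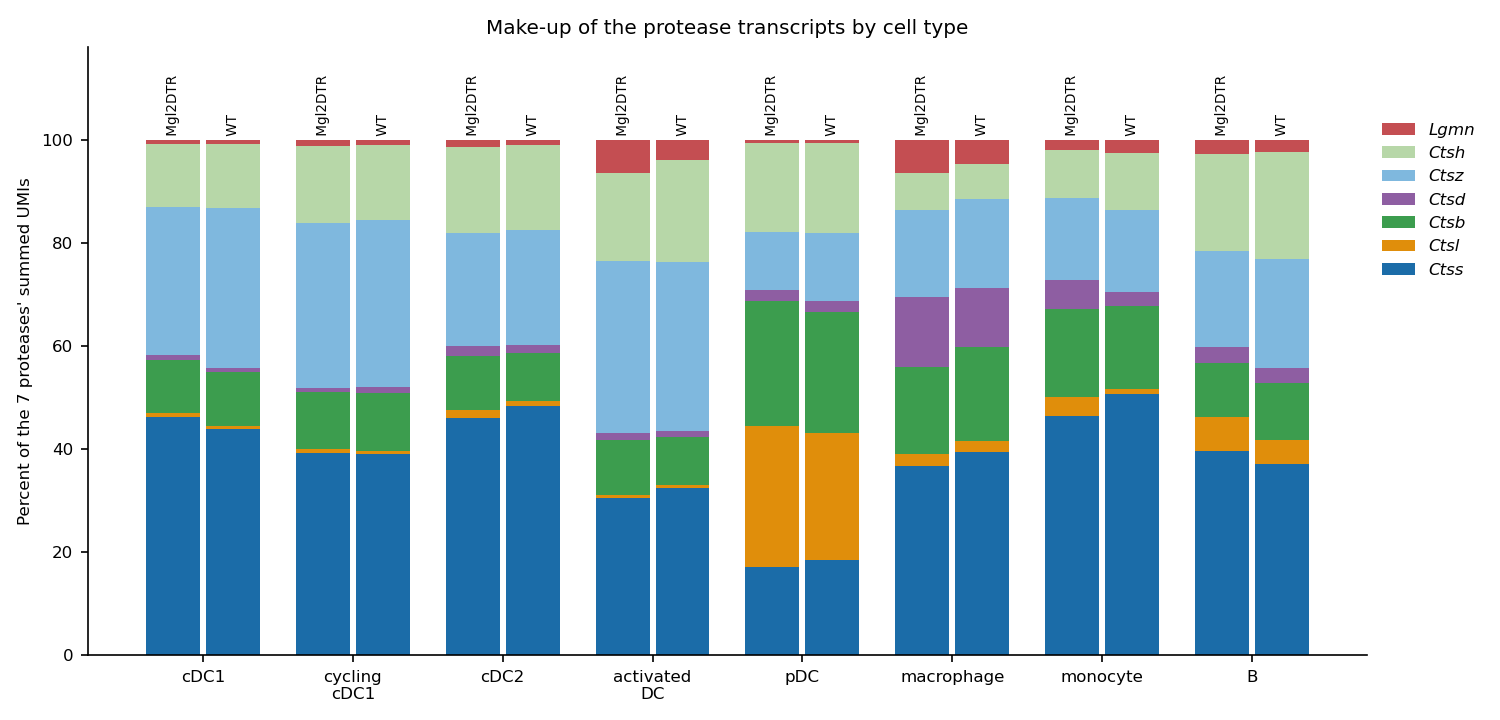
Stacked bars of the percent of protease UMIs held by each of 7 proteases in 8 antigen-presenting types, Mgl2DTR left of WT in each pair. Ctss is the largest segment in 6 types, Ctsl the largest in pDC-like cells (27.4% in Mgl2DTR and 24.7% in WT), and Ctsz and Ctss are close in activated DC-like cells.

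Activated DC-like cells, which carry Ccr7, the receptor that guides maturing dendritic cells, were the type where Ctsz stood level with or above Ctss. Ctsz held 33.3% (32.5 to 34.2) and Ctss 30.5% (29.6 to 31.3) in Mgl2DTR cells. In WT cells Ctsz held 32.8% (32.2 to 33.4) and Ctss 32.4% (31.8 to 32.9), and these intervals overlap, so neither led. The type joins 2 clusters. In cluster 6, led by Ccl22 and Il12b, Ctsz was ahead with 36.1% in Mgl2DTR and 34.6% in WT, whereas in cluster 5, led by Ccl5 and Epsti1, Ctsz (29.7%) and Ctss (28.3%) overlapped in Mgl2DTR and Ctss led with 31.6% in WT, where Ctsz had 29.0%. Lgmn held 6.45% in Mgl2DTR and 3.87% in WT activated DC-like cells.

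pDC-like cells were the only type of the 8 in which Ctsl led. Ctsl held 27.4% (26.9 to 27.9) in Mgl2DTR and 24.7% (24.2 to 25.1) in WT, just ahead of Ctsb with 24.3% (23.8 to 24.7) in Mgl2DTR and 23.3% (22.9 to 23.7) in WT. Ctsh had 17.4% in either genotype, and Ctss 17.1% in Mgl2DTR and 18.5% in WT. Cluster 3, with 794 Mgl2DTR and 869 WT cells, gave Ctsl 29.0% in Mgl2DTR and 27.2% in WT. In cluster 20, which has a median of 1794 UMIs and is led by Mctp2, Tcf4 and Ccr9, Ctsb led with 35.7% in Mgl2DTR and 31.4% in WT. In cluster 13 Ctss led, with 24.8% in Mgl2DTR and 25.3% in WT. There 84.2% of the cells had at least 25 cells called Doublet among their 50 nearest neighbours, against 0.120% in cluster 3, and the median total was 21763 UMIs, against 5986 UMIs in cluster 3. How many droplets of cluster 13 hold more than 1 cell was not measured.

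Macrophage-like cells also split. In cluster 4, led by C1qa, C1qb and C1qc, Ctss led with 39.3% in Mgl2DTR and 41.8% in WT. In cluster 26, led by Vcam1, Apoc1, Hpgd and Slc40a1, Ctsb led with 31.8% (30.2 to 33.4) in Mgl2DTR and 34.3% (33.3 to 35.4) in WT, and Ctss held only 14.8% in Mgl2DTR and 18.4% in WT. Ctsd held 19.1% there in Mgl2DTR and 16.0% in WT, and Lgmn 18.0% in Mgl2DTR and 9.63% in WT. In levels, cluster 26 had Ctsb at 2994 in Mgl2DTR and 2539.9 in WT, and cluster 4 at 1221 in Mgl2DTR and 1626 in WT. Lgmn was at 1694 in Mgl2DTR and 713 in WT in cluster 26, and at 399 in Mgl2DTR and 405 in WT in cluster 4. The intervals of the clusters did not overlap for either gene in either genotype. Cluster 26 is small, with 80 Mgl2DTR and 120 WT cells, and 25.5% of its cells lie near cells called Doublet.

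**Figure D3:**
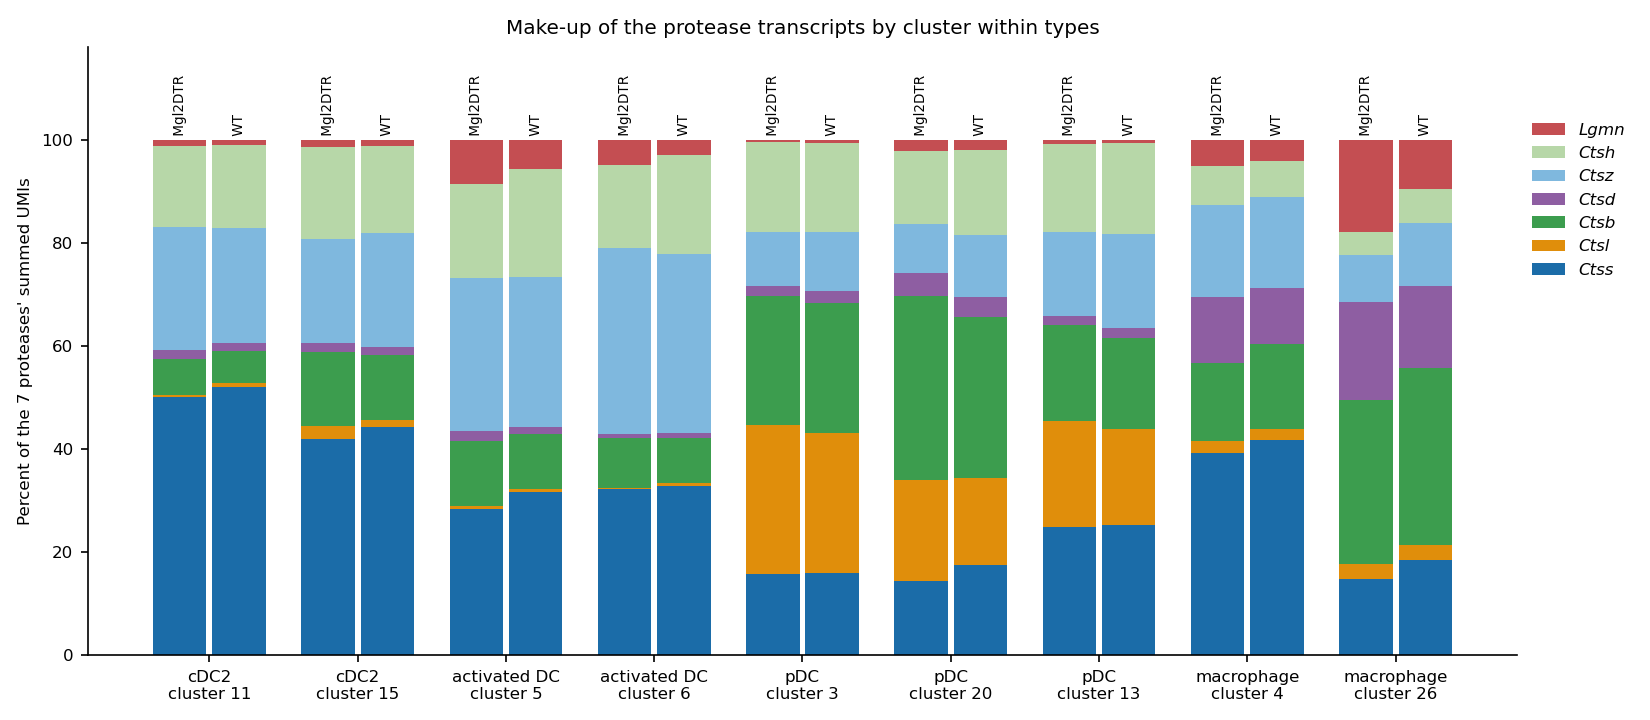
The same stacked shares for the clusters that make up the cDC2-like (11 and 15), activated DC-like (5 and 6), pDC-like (3, 20 and 13) and macrophage-like (4 and 26) types, Mgl2DTR left of WT. Ctsb is the largest segment in clusters 20 and 26, and Ctsl in cluster 3.

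In single cells thinned to 2000 UMIs, few protease UMIs remain, and ties took 10.2% to 30.1% of the cells over the 8 types and both genotypes. Ctss was the single largest protease in 57.2% of Mgl2DTR and 64.4% of WT macrophage-like cells, and in 56.7% of Mgl2DTR and 55.4% of WT monocyte-like cells. It was the largest in 48.1% of Mgl2DTR and 49.5% of WT cDC2-like cells, and in 33.7% of Mgl2DTR and 31.8% of WT cDC1-like cells. In pDC-like cells Ctsl was the largest in 30.7% of Mgl2DTR and 26.8% of WT cells, and Ctsb in 24.0% of Mgl2DTR and 22.8% of WT cells. In activated DC-like cells Ctsz was the largest in 27.1% of Mgl2DTR cells and Ctss in 23.9%, while in WT cells Ctsz was the largest in 23.8% and Ctss in 27.6%. Ties aside, the protease largest in more cells than any other led the summed counts in the 8 types and both genotypes. The exception was WT activated DC-like cells, where the summed shares overlap. No protease UMI was left in 12.2% of Mgl2DTR and 13.5% of WT cDC1-like cells.

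Cst3 was far above all the proteases in dendritic cells of the cDC1 and activated types. It stood at 34236 (34139 to 34334) CPM in Mgl2DTR and 35328 (35249.8 to 35406) in WT cDC1-like cells, that is 502 UMIs per Mgl2DTR cell and 517 per WT cell. Activated DC-like cells had 29964 in Mgl2DTR and 28915 in WT, and cycling cDC1-like cells 28088 in Mgl2DTR and 29053 in WT. The other types were lower. pDC-like cells had 8442 in Mgl2DTR and 10559.9 in WT, and cDC2-like cells 7312 in Mgl2DTR and 9218 in WT. Monocyte-like cells had 5789.8 in Mgl2DTR and 10175 in WT, and macrophage-like cells 4903 in Mgl2DTR and 7526 in WT. B-like cells had the least, 3439 in Mgl2DTR and 4675 in WT. Their highest 1% of cells held 26.1% of the Cst3 UMIs in Mgl2DTR and 17.6% in WT. The median B-like cell had only 9.74 Cst3 UMIs per 10000 in Mgl2DTR and 10.1 in WT. Of the B-like cells, 19.8% in Mgl2DTR and 24.8% in WT lay near cells called Doublet. T cell-like cluster 2 had 960.1 in Mgl2DTR and 1093 in WT, and 83.7% of its thinned Mgl2DTR cells and 80.5% of its thinned WT cells held a Cst3 UMI, so the mere presence of Cst3 in a cell says nothing here. Within the pDC-like type, cluster 13 had 23354 in Mgl2DTR and 21820.5 in WT, whereas cluster 3 had 2002 in Mgl2DTR and 2147 in WT. Within the activated type, cluster 6 had 41592 in Mgl2DTR and 35923 in WT, and cluster 5 had 15765 in Mgl2DTR and 15934 in WT.

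Cst3 did not follow the summed proteases across types. There were 30.4 Cst3 UMIs per protease UMI in Mgl2DTR and 34.0 in WT cDC1-like cells. The ratio was 14.2 in Mgl2DTR and 12.8 in WT activated DC-like cells. It was 2.59 in Mgl2DTR and 3.63 in WT cDC2-like cells, and it was lowest in macrophage-like cells, at 0.605 in Mgl2DTR and 0.787 in WT. In pDC-like cluster 3 it was 0.364 in Mgl2DTR and 0.417 in WT. These are numbers of transcripts and do not give the amounts of inhibitor and enzyme.

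**Figure D4:**
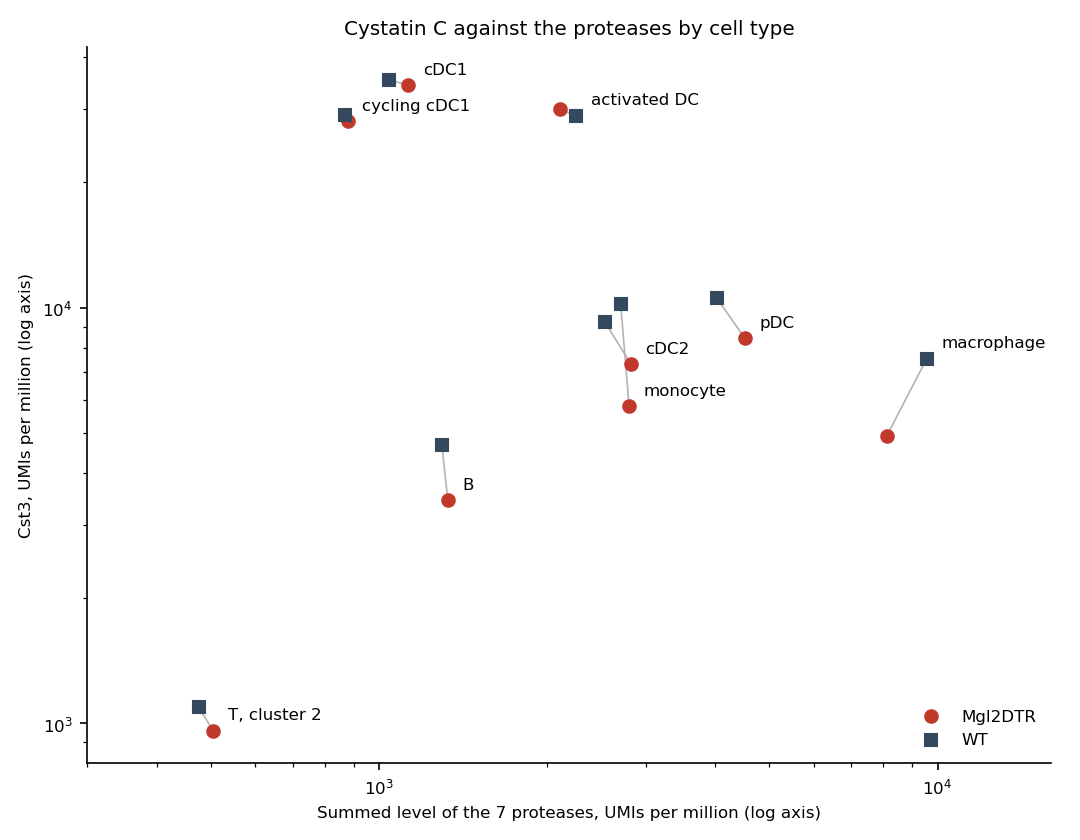
Cst3 level against the summed level of 7 proteases, both in CPM on log axes, for each antigen-presenting type and T cell-like cluster 2, with Mgl2DTR as red circles and WT as dark squares. cDC1-like cells lie at the upper left (Cst3 34236 and proteases 1127 in Mgl2DTR) and macrophage-like cells farthest right and lower (Cst3 4903 and proteases 8106 in Mgl2DTR).

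Between the genotypes, most of the 72 ratios (9 genes in 8 types) were small. A ratio of the level in Mgl2DTR over that in WT was called where it was at least 1.5 fold either way, its exact interval lay on 1 side of 1 and at least 50 UMIs were counted. By this rule 4 ratios were higher, 2 were lower and 66 were not called. The share of all measured genes called was computed for the types only, not for clusters within a type. With the main settings, Ctss, Ctsb, Ctsz, Ctsh and Ifi30 had no call in any type, with ratios between 0.787 and 1.27. The Cst3 ratio was below 1 in 7 of the 8 types and 1.04 in activated DC-like cells, and in T cell-like cluster 2 it was 0.878 (0.825 to 0.934). With the same settings, cDC1-like, cycling cDC1-like, pDC-like and B-like cells had no call for any of the 9 genes, beside 1.5%, 1.37%, 1.55% and 5.29% of all measured genes called higher there and 1.34%, 1.27%, 2.7% and 2.99% called lower. The median ratio of the 9 genes was between 0.840 (macrophage-like) and 1.13 (cDC2-like), while that of all measured genes was 1.04 in macrophage-like and 1.02 in cDC2-like cells. Some calls came with other settings: with the 9 genes kept in the clustering Cst3 was lower in pDC-like cells (0.569), and without cells holding other types' markers it was lower in B-like cells (0.594).

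In cDC2-like cells, 1 of 9 genes was higher, beside 3.28% of all measured genes, and none was lower, beside 3.39%. Ctsl stood at 43.0 in Mgl2DTR and 25.9 in WT, a ratio of 1.66 (1.31 to 2.08) from 107 UMIs in Mgl2DTR and 276 UMIs in WT. The highest 1% of cells held 31.8% of the Ctsl UMIs in Mgl2DTR and 32.2% in WT, and the ratio was 1.65 without them. The call was met in cluster 15, led by Cd209d and Cd209e, where Ctsl was 85.0 in Mgl2DTR and 38.3 in WT, a ratio of 2.22 (1.71 to 2.87). In cluster 11, led by Mmp12 and Ear2, it was 11.9 in Mgl2DTR and 15.8 in WT. The pDC marker list was higher too, as its 10 genes summed to 2279 in Mgl2DTR and 1814 in WT cDC2-like cells, with 4 of 10 higher, and pDC-like cells are the type with the highest Ctsl. The monocyte list summed to 3564 in Mgl2DTR and 2379 in WT, with 2 of 7 measured genes higher. Without cells that held markers of other types the ratio was 1.44 and no longer called. That filter used the pDC list but not the monocyte list. What part these markers have in the result was not tested.

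In activated DC-like cells, 1 of 9 was higher, beside 3.36% of all measured genes, and none was lower, beside 2.03%. Lgmn stood at 136 (126 to 146) in Mgl2DTR and 87.1 (81.8 to 92.6) in WT, a ratio of 1.56 (1.42 to 1.72). Cluster 5 had 173 in Mgl2DTR and 116 in WT, a ratio of 1.49, and cluster 6 had 106 in Mgl2DTR and 71.5 in WT, a ratio of 1.48, so the direction was the same in either cluster while neither alone reached 1.5 fold. The macrophage marker list, of the type with the highest Lgmn, summed to 303 in Mgl2DTR and 261 in WT, with 0 of 8 measured genes higher and 1 lower. Its part in the result was not tested.

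In macrophage-like cells, 1 of 9 was lower, beside 3.27% of all measured genes, and none was higher, beside 4.3%. Cst3 stood at 4903 (4834 to 4973) in Mgl2DTR cells and 7526 (7468 to 7584) in WT cells, a ratio of 0.651 (0.641 to 0.662). Cluster 4 had a ratio of 0.662 and cluster 26 a ratio of 0.687. The median cell had 30.1 Cst3 UMIs per 10000 in Mgl2DTR and 39.0 in WT, which is a smaller difference than that of the sums, and the call was lost where each cell was scaled to the same total, at 0.696. The activated DC list, of a type rich in Cst3, summed to 1208 in Mgl2DTR and 1755 in WT macrophage-like cells, with 7 of 12 genes lower, and the cDC1 list to 314 in Mgl2DTR and 383 in WT, with 1 of 9 lower. Other lists differed as well: the monocyte list summed to 2604 in Mgl2DTR and 2057 in WT, with 4 of 9 measured genes higher, and the macrophage list to 15204 in Mgl2DTR and 20554 in WT, with 2 of 12 higher and 1 lower. Of the pDC list 4 of 10 genes were lower, and of the cDC2 list 4 of 9 measured genes were lower and 1 higher. Without cells holding other types' markers the ratio was 0.701 and not called. That filter did not use the activated DC, cDC1, cDC2 or monocyte lists. What part any of these lists has in the result was not tested. By the same rule within cluster 26, Lgmn was higher with a ratio of 2.38 (2.13 to 2.65) and Ctsd with 1.52 (1.38 to 1.68). The share of all measured genes called in cluster 26 was not computed, so whether these calls stand out is not known. In cluster 4 the Lgmn ratio was 0.985 and the Ctsd ratio 0.948, neither called.

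In monocyte-like cells, 2 of 9 were higher, beside 4.87% of all measured genes, and 1 was lower, beside 8.27%. Ctsl stood at 103 (93.5 to 113) in Mgl2DTR and 27.7 (20.3 to 37.0) in WT, a ratio of 3.71 (2.73 to 5.13) from 460 UMIs in Mgl2DTR and 46 UMIs in WT. The WT level is near that of T cell-like cluster 2, which had 25.6 in WT, and the ratio was 8.04 at the lower clustering resolution of 0.5 and 2.44 with the 9 genes kept in the clustering, called in both. Ctsd stood at 155 (143 to 166) in Mgl2DTR and 70.5 (58.3 to 84.5) in WT, a ratio of 2.19 (1.80 to 2.69). It was 3.43 at resolution 0.5, and with the 9 genes kept in the clustering it was 1.11 (0.999 to 1.24) and not called. Cst3 stood at 5789.8 (5719.5 to 5861) in Mgl2DTR and 10175 (10022 to 10329) in WT, a ratio of 0.569 (0.558 to 0.580). The median cell had 35.8 Cst3 UMIs per 10000 in Mgl2DTR and 45.6 in WT, a smaller difference than that of the sums. Median totals were 8875.5 UMIs in Mgl2DTR and 5184 in WT. The Cst3 call was lost where each cell was scaled to the same total (0.714) or thinned (0.696). The group itself differed in make-up: the 12 neutrophil markers summed to 34308 in Mgl2DTR and 2478 in WT monocyte-like cells, with 8 of 10 measured genes higher, and the cDC1 markers summed to 436 in Mgl2DTR and 703 in WT, with 6 of 9 lower. The macrophage markers summed to 351 in Mgl2DTR and 877 in WT, with 3 of 7 measured genes lower and 1 of the 12 at 0. Of the cells, 7.84% in Mgl2DTR and 19.4% in WT lay near cells called Doublet. Without these, Cst3 had a ratio of 0.754 and Ctsl of 3.43. The part of these markers and droplets in the results was not tested.

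**Figure D5:**
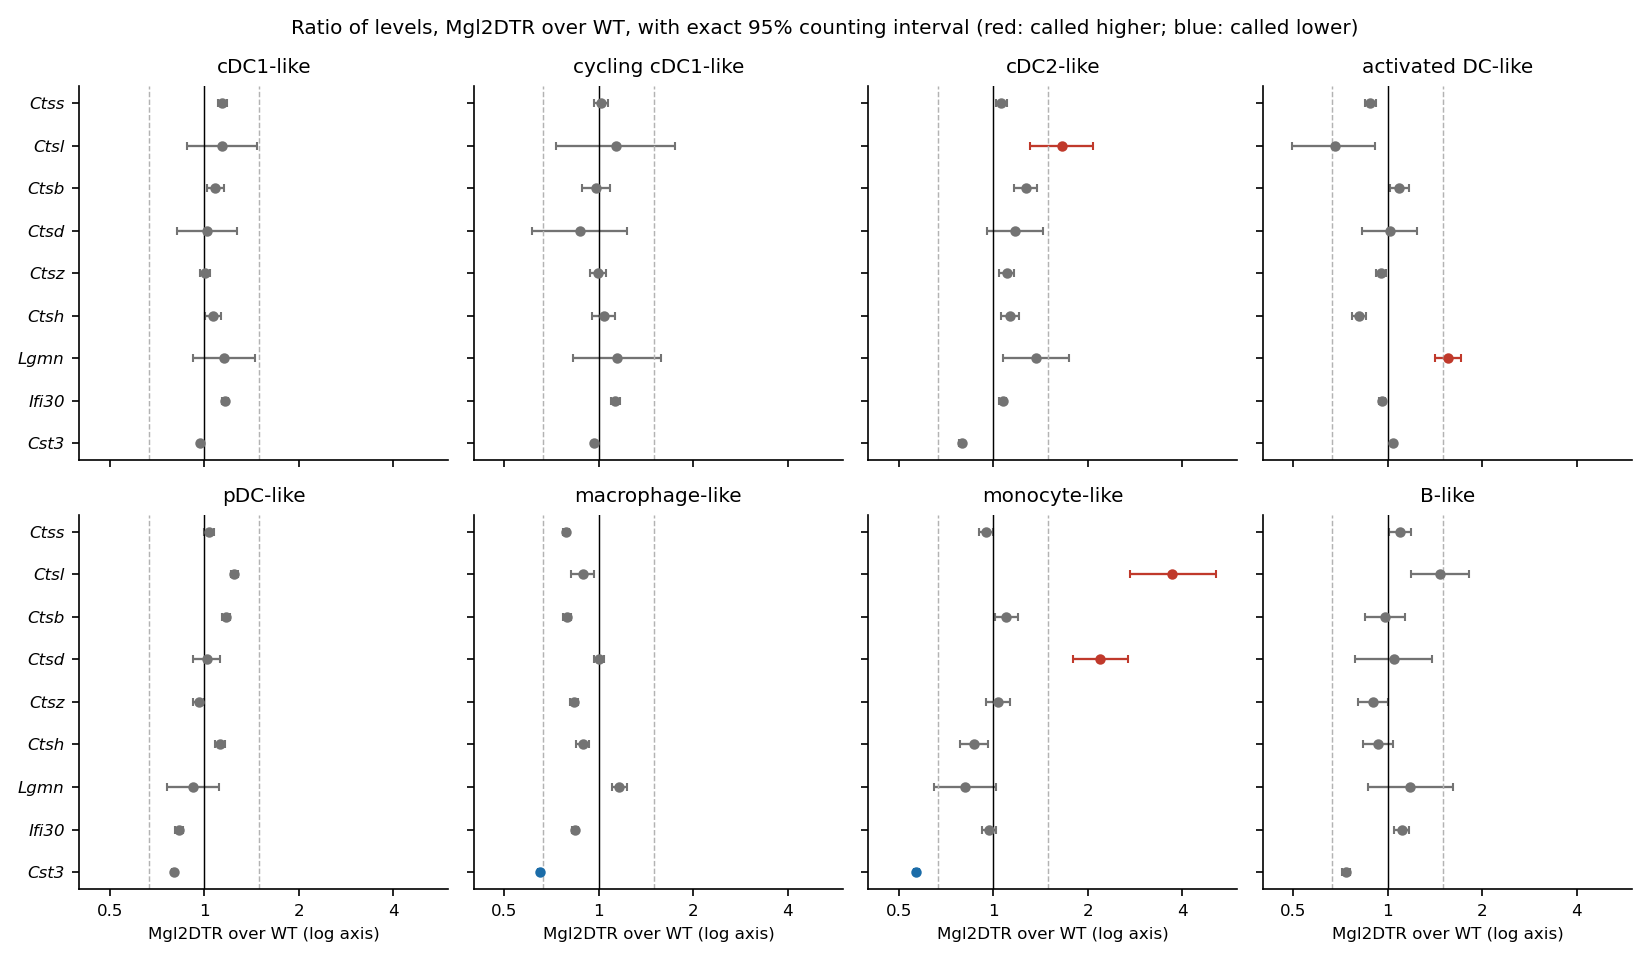
Ratio of the level in Mgl2DTR over that in WT for 9 genes in 8 antigen-presenting types, on a log axis, with exact 95% counting intervals, a solid line at 1 and dashed lines at 1.5 fold either way. Red points (Ctsl in cDC2-like and monocyte-like, Lgmn in activated DC-like, Ctsd in monocyte-like cells) were called higher in Mgl2DTR and blue points (Cst3 in macrophage-like and monocyte-like cells) lower.

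The partners of the 9 genes in the pathway differed between the genotypes in some of the types. Of 10 genes for class II chains, the invariant chain and peptide exchange, 10 of 10 were lower in Mgl2DTR monocyte-like cells, beside 8.27% of all measured genes. Their median log2 ratio was -1.51, against -0.06 over all measured genes. Cd74, the invariant chain that these proteases cut, stood at 3164 in Mgl2DTR and 8925 in WT, a ratio of 0.354, and Ciita, the master activator of class II genes, had a ratio of 0.335. In macrophage-like cells 5 of 10 were lower, beside 3.27% of all measured genes (median log2 ratio -0.67, against 0.06). Among them were H2-Aa with a ratio of 0.568, H2-Eb1 with 0.541 and Cd74 with 0.579. In activated DC-like cells H2-DMb2, a chain of the peptide exchange factor, was the only one lower, with a ratio of 0.651, beside 2.03% of all measured genes. The other 5 types had no call. Beside these lower class II genes, Ctss had a ratio of 0.949 (0.904 to 0.996) and Ifi30 a ratio of 0.968 (0.921 to 1.02) in monocyte-like cells. In macrophage-like cells Ctss had 0.787 (0.771 to 0.804) and Ifi30 0.840 (0.821 to 0.859). None of these was called, but with the 9 genes kept in the clustering Ctss in monocyte-like cells had a ratio of 0.650 and was called lower. The make-up of both groups differed between the genotypes, as given above. In monocyte-like cells 6 of 7 measured genes of the activated DC list were also lower. Of the cDC2 list there, 4 of 8 measured genes were lower and 1 higher. The part of such cells and droplets in the class II ratios was not tested.

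Other protease inhibitors differed too. Of the 12 in the files (13 were listed), 6 were higher, beside 4.87% of all measured genes, and 3 were lower, beside 8.27%, in Mgl2DTR monocyte-like cells. Stfa1 and Stfa3, which encode stefins, inhibitors of cysteine cathepsins that are abundant in neutrophil precursors, had 906 UMIs (Stfa1) and 185 UMIs (Stfa3) there in Mgl2DTR and 0 in WT. Stfa2l1 had 689 UMIs in Mgl2DTR and 22 UMIs in WT. The neutrophil markers were higher in the same type, and whether single cells hold both was not checked. Slpi, an inhibitor of neutrophil elastase, was higher in 4 types, with ratios of 7.13 in cDC2-like, 3.25 in macrophage-like, 3.02 in monocyte-like and 1.87 in pDC-like cells. Serpinb6b was lower in 4 types, with ratios of 0.632 in cDC2-like, 0.59 in pDC-like, 0.452 in macrophage-like and 0.275 in monocyte-like cells. The marker lists that differed in cDC2-like, macrophage-like and monocyte-like cells, given above, differ beside these ratios too. In pDC-like cells 7 of 10 measured genes of the T cell list were lower and 1 higher. That list summed to 1341 in Mgl2DTR and 976 in WT. Of the cDC2 list there, 4 of 8 measured genes were lower. The part of all these lists was not tested.

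In the machinery around the proteases, few genes were called, beside the 1.27% to 8.27% of all measured genes called in 1 direction in a type, so these counts say nothing particular about the lists. None of 8 genes of the vacuolar proton pump, which acidifies the lysosome, was called in any of the 8 types, and neither was any of 4 transcription factor genes for lysosomal genes (Tfeb, Tfe3, Mitf and Tfec), of which 2 to 4 were measured per type. Of 21 lysosomal membrane proteins and hydrolases, 1 was called higher in each of cDC1-like cells (Tpp1, 1.99), cDC2-like cells (Lamp2, 1.69) and monocyte-like cells (Lamp2, 1.55), and 1 was lower (Ppt1, 0.539, in monocyte-like cells). Among 8 other cathepsins, Ctsw was higher in cDC2-like cells (1.58), Ctsc in monocyte-like cells (1.59), and Ctsf was lower in macrophage-like cells (0.400). Of 6 genes that sort enzymes to lysosomes, Sort1 was higher in pDC-like cells (1.53), Igf2r in macrophage-like cells (1.72) and Gnptab in monocyte-like cells (1.70), and M6pr was lower in monocyte-like cells (0.664). Of 7 genes of the phagosomal oxidase, which works against reductases such as Ifi30, Cybb (1.56) and Rac2 (1.66) were higher in cDC2-like cells, where the monocyte markers also summed higher, Hvcn1 was higher in B-like cells (1.69) and lower in monocyte-like cells (0.525).

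Across 22 named clusters of WT cells, the pattern of each gene was set beside that of 9516 others by Pearson's correlation of log2(CPM + 10), as a description, since the clusters share 1 library and its depth. In some of these clusters most cells lie near cells called Doublet, such as 84.2% in cluster 13 and 85.1% in cluster 18. What part such droplets have in the correlations was not tested. Ctss was most like Ctsz (r = 0.95), Cyfip1 (0.91) and Ifi30 (0.90), and Ctsh most like Cyfip1 (0.95), Ctsz (0.94) and Ly86 (0.94). Ifi30 was most like the class II genes Cd74, H2-Aa and H2-Eb1 (each 0.94). Ctsl was most like Klk1 (0.90), Lair1 (0.89) and Pltp (0.88). Ctsb was most like Tmem86a (0.95), Ifnar2 (0.89) and Blvrb (0.88), Ctsd most like Timp2 (0.90), Map11 (0.87) and Slc45a4 (0.85), Lgmn most like Plekhm2 (0.93), Tmem104 (0.92) and Abhd12 (0.90), and Cst3 most like Shtn1 (0.94), Gm36486 (0.94) and Atox1 (0.93). Between the 9 genes, Ctsb and Lgmn had r = 0.79 and Ctsb and Ctsl r = 0.73, whereas Ctsd had 0.05 with Ctsz and -0.41 with Cst3, and Ctsl had -0.08 with Cst3.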

How the data were processed

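Single-cell gene expression was measured with the Chromium Single Cell 3′ v3 kit, per the labels. The 2 tables deposited by the authors give counts of UMIs without normalization. The submitters' processing notes name Cell Ranger 6.0.0, Seurat 4.0.4 and the build mm10, but the sources used here name no annotation. Genotype was taken from the deposited hashtag call, another column of the authors' cell table, whose UMI totals equalled the summed counts in 28926 of 28926 cells. Cells called Doublet or Negative were left out, and no doublet caller was run beyond these calls. The 2 GEO samples (gene expression and hashtags) hold both genotypes.

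The 9 genes, the marker lists and the pathway lists were chosen with earlier results of these data known, and so were the genes named from them. For each of the 9 genes the 3 other genes with the highest correlation were named, and from the lists the larger called ratios.

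The tools were leidenalg 0.10.2, igraph 0.11.9, scikit-learn 1.9.0, scipy 1.17.1, numpy 2.4.6, pandas 2.3.3 and matplotlib 3.10.9 under Python 3.11.15. For clustering, each cell was brought to 10000 UMIs on a log scale. Clusters came from 2000 variable genes (without the 9 genes and Mgl2), 30 principal components, 20 neighbours and Leiden resolution 1, and 7 of the 9 genes would otherwise have been variable. To be named, a cluster needed at least 3 markers of a list. Each had 2 fold the level of other cells and was held by 20% of the cluster's cells. The cluster stayed unnamed where 60% of the markers of another lineage's list also did, or where 2 lists tied. It also stayed unnamed where another list had more genes among its top 10, or where it was shallow with no own marker there. UMIs were summed per type and genotype, as UMIs per 1000000 (CPM). Levels have exact Poisson, shares Clopper-Pearson and ratios exact conditional 95% intervals. For shares of cells with a UMI, each cell was thinned to 2000 UMIs and shallower cells were left out, for example 148 of 800 Mgl2DTR and 189 of 1396 WT activated DC-like cells. Ratios were also computed with other clusterings, cell filters, scalings and thresholds. The scripts were tested on simulated counts.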

Additional observations from a re-analysis of the deposited data

Results flagged for a closer look

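The ratio of Ctsl between the genotypes pointed in opposite directions in clusters of antigen-presenting cells, and the difference between these ratios was not tested, since each genotype is 1 sample. In monocyte-like cluster 9 the ratio of the level in Mgl2DTR over that in WT was 3.71 (95% counting interval 2.73 to 5.13), and in cDC2-like cluster 15 it was 2.22 (1.71 to 2.87). In activated DC-like cluster 6 it was 0.490 (0.303 to 0.764), from 7.94 UMIs per 1000000 (CPM) in Mgl2DTR cells and 16.2 in WT cells. Both values of cluster 6 lie under those of T cell-like cluster 2, which had 19.9 in Mgl2DTR and 25.6 in WT. They lie above those of cDC1-like cells, which had 7.69 in Mgl2DTR and 6.76 in WT. What part free RNA has in this difference was not tested. The share of all measured genes called in clusters 15 and 6 was not computed.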

How the results depend on the processing

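Among the 16 combinations of type and genotype, Ctss was the largest protease in 12 under every alternative except thinning each cell to 2000 UMIs, which gave 13 (activated DC-like WT cells turned to Ctss). Of the 72 ratios, all kept their call without clusters 13 and 26, an alternative chosen after seeing the data. The 4 calls of a higher level became 2 at a threshold of 2 fold and 6 at Leiden resolution 0.5. The 2 calls of a lower level became 0 at 2 fold and 0 after thinning. Where every cell was given an equal total both were lost, and 1 new call, Lgmn in monocyte-like cells, was gained. At 2 fold only Ctsl and Ctsd in monocyte-like cells were still called. Ratios turned round in 2 cases, Lgmn in monocyte-like cells with 3.15 at resolution 0.5 and Ctsl in B-like cells with 0.579 without cells near cells called Doublet. Ctsl in cDC2-like cells lost its call without cells holding other types' markers (1.44) and as the mean of the ratios within clusters (1.29). Lgmn in activated DC-like cells lost it without cells near cells called Doublet (1.499) and within clusters (1.48). Cst3 in macrophage-like cells lost it at 0.701 without cells holding other types' markers, 0.696 scaled, 0.695 thinned and 0.675 within clusters. Cst3 in monocyte-like cells lost it at 0.702 with the 9 genes kept in the clustering, 0.754 without cells near cells called Doublet, 0.714 scaled and 0.696 thinned. Ctsd in monocyte-like cells lost it with the 9 genes kept in the clustering (1.11). Other ratios gained a call: with the 9 genes kept in the clustering Ctss in monocyte-like (0.650) and Cst3 in pDC-like cells (0.569) were lower, and Cst3 in B-like cells was lower without cells holding other types' markers (0.594) and without the highest 1% of cells (0.665). Lgmn was higher in B-like cells without cells near cells called Doublet (1.67) and in macrophage-like cells within clusters (1.53), and lower in monocyte-like cells scaled to an equal total (0.664). Ctsb was higher in monocyte-like cells at resolution 0.5 (1.65), and Ctsl was lower in activated DC-like cells with at least 1000 UMIs and under 5% mitochondrial (0.656) and scaled to the median ratio (0.660). The cause was not tested in any of these. What counts as a cell holding other types' markers was set after seeing how many cells each definition left. Only the T, B, neutrophil, NK/ILC, pDC, macrophage and erythroid lists were used for it. The limits are 1 sample per genotype, no named animals, names rebuilt from markers, droplets of more than 1 cell and the few Ctsl UMIs in types other than pDC-like. No paired analysis was possible because each genotype is 1 sample.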

Other observations

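Cluster 24, led by Arg1, Ccl2, Pf4 and Ccl7, stayed unnamed because 2 marker lists fitted it equally, and it held 210 Mgl2DTR and 54 WT cells. Its protease make-up was unlike that of the monocyte-like cells. Ctsb held 26.6% of protease UMIs in Mgl2DTR, and in WT Ctss (31.7%) and Ctsb (30.1%) overlapped. Ctsl stood at 711 CPM in Mgl2DTR and 229 in WT, a ratio of 3.10 (2.56 to 3.79), Ctsd at 951 in Mgl2DTR and 352 in WT, a ratio of 2.70 (2.31 to 3.18), and Lgmn at 688 in Mgl2DTR and 317 in WT, a ratio of 2.17 (1.83 to 2.58). Ctsh was lower, with 233 in Mgl2DTR and 405 in WT, and so was Cst3, with 4849.6 in Mgl2DTR and 13099 in WT, a ratio of 0.370 (0.359 to 0.382). Of its cells, 25.8% lie near cells called Doublet. The share of all measured genes called in this cluster was not computed, so these ratios cannot be set against it. What part such droplets and the mix of cells have in the ratios was not tested.

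In neutrophil-like cells Cst3 stood at 4724 in Mgl2DTR and 9058 in WT, a ratio of 0.522 (0.514 to 0.529), but the genotypes sat in different clusters. Cluster 10 held 642 of 1049 Mgl2DTR and 125 of 440 WT cells, and cluster 17 held 199 Mgl2DTR and 228 WT cells. Within clusters the ratio was 1.07 (0.985 to 1.17) in cluster 10, 0.396 (0.384 to 0.408) in cluster 17 and 0.857 (0.842 to 0.873) in cluster 18. Cluster 18, where 85.1% of the cells lie near cells called Doublet, held 28991 of the 42877 Cst3 UMIs in Mgl2DTR and 21712 of the 37654 in WT. The median cell went the other way, with 22.0 Cst3 UMIs per 10000 in Mgl2DTR and 15.1 in WT, and the highest 1% of cells held 24.4% of the Cst3 UMIs in Mgl2DTR and 16.1% in WT. Ctsd was the single largest protease in 16.5% of thinned Mgl2DTR and 18.2% of thinned WT neutrophil-like cells.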
